A study of Mus musculus with 9 samples.

Results

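The genes described here are 10 isotypes of alpha- and beta-tubulin: Tuba1a, Tuba1b, Tuba1c, Tuba4a, Tuba8, Tubb2a, Tubb2b, Tubb3, Tubb5 and Tubb6. They were selected from the log2 fold changes of injured against uninjured ganglia on these same arrays, so their changes are a description. Where a tubulin probe is said below to be called or not, this only places it in the fit over all probes and is no independent evidence. Every probe carrying one of these names, an older name or the RefSeq identifier of one of these genes was taken, which gave 16 probes, 7 for alpha- and 9 for beta-tubulins, of the 41174 probes and 27670 gene names on the array. The samples were total RNA of L3/L4 dorsal root ganglia (DRG) of adult mice, 5 taken 3 days after sciatic nerve transection (injured) and 4 without that injury (uninjured). All 9 samples carried the same 2 labels, jun.wt for genotype and cre.neg for Cre, so no group is labelled as lacking Jun or as carrying Cre. The labels and the methods gave 3 days and the results text of the study an earlier time. Neither the sex, strain and number of mice per sample, nor whether an uninjured ganglion was the other side of an injured mouse, was given for these arrays in the sources used here (for nerve crush in other assays, the methods name the opposite side as control), so a p-value measures only the spread between these samples.

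Microtubules are hollow tubes of alpha- and beta-tubulin dimers, and they form the tracks along which an axon moves cargo and the scaffold that has to be rebuilt when an axon grows again. Mammals make each subunit from several genes whose proteins differ mainly in their acidic tails, where enzymes remove tyrosine or add glutamate and glycine chains. Neurons are rich in a few isotypes, among them Tubb3, whereas others such as Tubb5 and Tubb6 are made by many cell types.

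Each sample was labelled with Cy5 and hybridised together with a Cy3-labelled universal mouse reference RNA. The value of a probe is the log2 ratio of Cy5 over Cy3, so the level of one probe cannot be set against that of another. Changes of probes are set side by side below, although their sizes also varied with the probe and the processing. The dyes were never swapped, so any dye bias of a probe stayed in its ratio. All 16 tubulin probes were well above background in Cy5 on all 9 arrays, and none was saturated. A probe is called here when its adjusted p (limma, Benjamini-Hochberg over the 31186 probes tested) was under 0.05. Of all probes tested, 23.5% were called and 10.5% were called higher in injured ganglia. Of the tubulin probes, 7 of 16 (43.8%) were called, all 7 of them higher. The groups of arrays did not overlap for 8 of the 16, against 22.6% of all probes. The median log2 fold change was 0.15 over the tubulin probes and -0.00 over all probes tested. Because the genes were taken for their changes, nothing is read from these shares.

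Tubb6 and Tuba1c were 5.15-fold and 3.76-fold higher in injured ganglia. Tubb2b was 1.56-fold higher and the Tubb2a probes 1.33-fold to 1.52-fold higher. Of the rest, 1 Tubb5 probe was called at 1.18-fold, and no probe of Tubb3, Tuba1a, Tuba1b, Tuba4a or Tuba8 was called. The probes that changed most were thus named for 1 beta- and 1 alpha-tubulin of broad expression, and not for the neuronal Tubb3. Tubulin isotypes are alike in sequence, and whether a probe also binds the RNA of another isotype was not tested, so each change belongs to a probe before it belongs to a gene. In RNA of whole ganglia, a change in the number of cells of a type and a change in the RNA made per cell cannot be told apart.

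**Figure D1:**
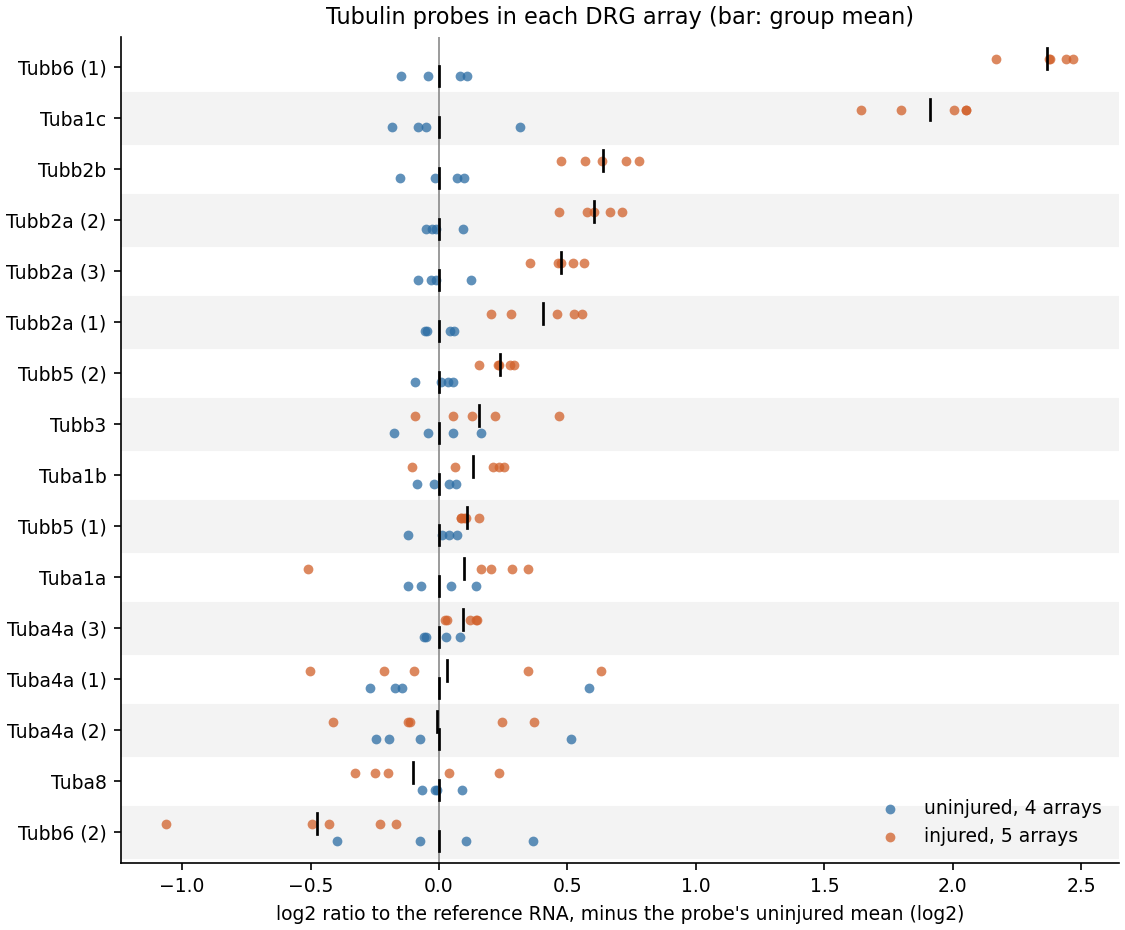
Log2 ratio of each tubulin probe to the reference RNA on each array, minus the mean of the 4 uninjured arrays for that probe. Blue points are uninjured and orange points injured arrays, black bars are group means, and numbers in brackets tell apart probes of 1 gene. The 5 injured arrays lie far to the right of the uninjured ones for probe 1 of Tubb6 and for Tuba1c, and the 2 groups overlap for Tubb3, Tuba1b, Tuba1a, Tuba8, the 3 probes of Tuba4a and probe 2 of Tubb6.

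Tubb6 encodes the class V beta-tubulin, which is found in most tissues. Its first probe, designed on NM_026473, gave log2 ratios of -2.97, -2.86, -2.74 and -2.71 in uninjured 1 to 4 and of -0.44, -0.38, -0.65, -0.45 and -0.35 in injured 1 to 5. All injured arrays were thus higher than all uninjured arrays, and the spread inside each group (SD 0.119 in both) was small beside the gap. The log2 fold change was 2.37 ± 0.0802 (SE, n = 5 and 4). Within the only slide that held both groups, with 3 injured arrays and 1 uninjured, the difference was 2.58. A second probe named Tubb6 in the scanner files behaved otherwise. It was designed on the transcript AK041002, lists no RefSeq gene, and its coordinates run opposite to those of the first probe, so which RNA it detects is uncertain. The probe was dim in Cy3, with median raw signals of 73.5 in uninjured and 79.3 in injured arrays. Its log2 ratios were 2.12, 1.36, 1.86 and 1.68 in uninjured and 1.52, 1.26, 0.69, 1.59 and 1.33 in injured arrays. The groups overlapped and the probe was not called, with a log2 fold change of -0.48 ± 0.191. Without uninjured 2 it was called, at -0.61.

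Tuba1c, once named Tuba6, encodes an alpha-tubulin made in most tissues. Its probe, designed on AK145567, lies at chr15:99023456-99023515 (mm7). Like the second Tubb6 probe it lists no RefSeq gene, so its name rests on that of the scanner files. The log2 ratios were -3.13, -3.23, -3.10 and -2.73 in uninjured 1 to 4 and -1.25, -0.99, -1.40, -0.99 and -1.04 in injured 1 to 5. The lowest injured array was again above the highest uninjured array. The log2 fold change was 1.91 ± 0.117 (SE), and the difference within the shared slide was 2.03. The change of Tubb6 exceeded that of Tuba1c by 0.46 ± 0.0899 (SE), and that of Tuba1c exceeded the next, of Tubb2b, by 1.27 ± 0.137.

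Tubb2b, a beta-tubulin abundant in developing neurons, was measured by a probe at chr13:33544738-33544797 (mm7). Its log2 ratios were 3.86, 3.95, 3.73 and 3.98 in uninjured and 4.61, 4.66, 4.45, 4.52 and 4.36 in injured arrays. Every injured array was higher than every uninjured one, and the log2 fold change was 0.64 ± 0.0795. Tubb2a, its close relative on the same chromosome, had 3 probes, which were all called. The second probe, at chr13:33491806-33491835, gave 4.44, 4.54, 4.40 and 4.42 in uninjured and 5.05, 5.16, 5.03, 5.12 and 4.92 in injured arrays, a log2 fold change of 0.60 ± 0.065. Its coordinates span 30 bases of a probe of 60, so they place only part of it. The array annotation lists the third for Tubb2a, Tubb2b, Tubb3 and Tubb6 alike, so its change of 0.48 ± 0.0656 cannot be credited to 1 of them. The first, whose coordinates span more than its own length as a probe across an exon junction would, changed by 0.41 ± 0.0824. The groups did not overlap for any of the 3. The changes of Tubb2b and of the second Tubb2a probe differed by 0.03 ± 0.052 in the ratio, less than the error. In Cy5 alone these 2 probes changed by 0.76 and 0.29, so their likeness held for the ratio only. Probes 2 and 3, both named for Tubb2a, differed by 0.13 ± 0.0341 in their changes, so probes of 1 name did not give the same size. Whether this comes from the other genes listed for probe 3 was not tested.

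The reference channel touches the Tubb2a values. Cy3 carries the same reference RNA on all arrays, and 0.0930% of probes differed there between the groups (29 of 31186, limma on log2 Cy3 scaled between arrays). Of the 16 tubulin probes, 2 did, and both were Tubb2a probes. Probe 2 fell by 0.31 in Cy3 on the log2 scale (limma adjusted p = 0.0163) and probe 3 fell by 0.32 (limma adjusted p = 0.0303). The number of probes called in Cy3 over the whole array depended on single arrays. It was 8, 6, 13 and 8 without uninjured 2, 3 and 4 and injured 4, and 78 and 74 without uninjured 1 and injured 1. In Cy5 alone the Tubb2a probes were higher in injured ganglia by 0.43, 0.29 and 0.15 in the order of their numbers, and the third was no longer called. The first, whose Cy3 signal differed by 0.03, thus changed in Cy5 (0.43) by about as much as in the ratio (0.41). Tubb6, Tuba1c and Tubb2b changed by 2.18, 1.56 and 0.76 in Cy5 and by -0.19, -0.35 and 0.13 in Cy3, and none of these 3 Cy3 differences was called.

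**Figure D2:**
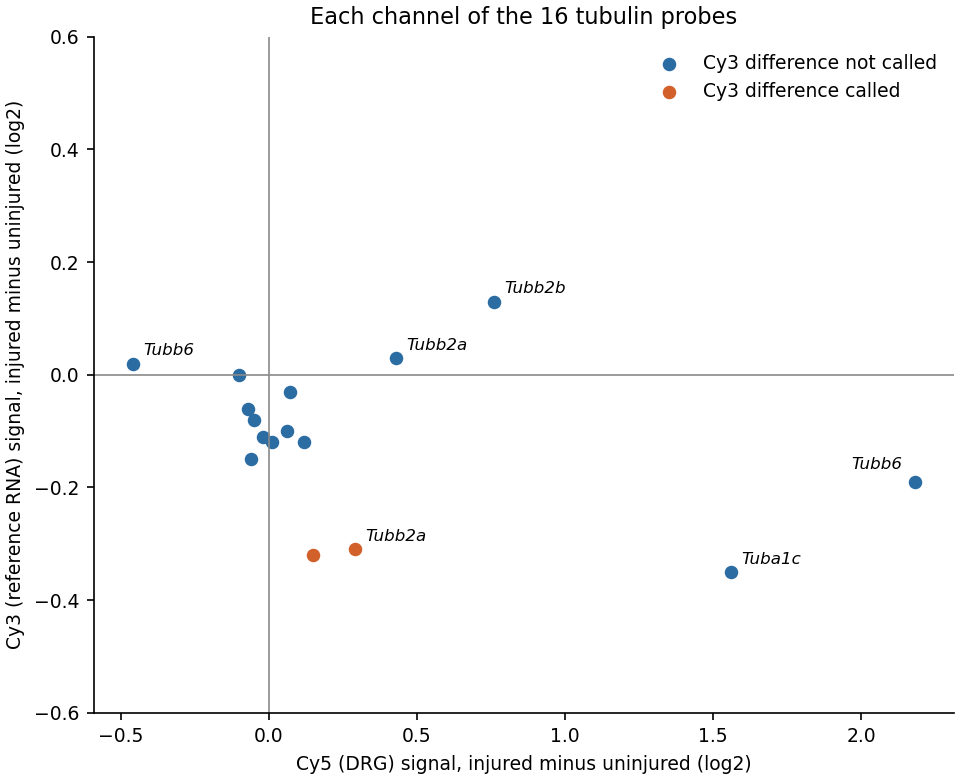
Difference between injured and uninjured arrays in the Cy5 signal (x axis, DRG RNA) and the Cy3 signal (y axis, reference RNA) of each tubulin probe, both on the log2 scale after scaling between arrays. Orange points mark the 2 Tubb2a probes whose Cy3 signal was called lower in the injured arrays, and Tubb6 (2.18) and Tuba1c (1.56) stand far to the right.

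The upstream sequences of Tubb2a and of Tuba1c are shown because both genes were called higher and only one of them holds either of 2 motifs searched. Both motifs can be bound by dimers of Jun, the transcription factor that the label jun.wt, shared by all 9 samples, names. Jun dimers bind TGANTCA with Fos partners and TGACGTCA with ATF partners, and both motifs read the same on either strand. Of the 10 genes, 8 had an entry in the RefSeq promoter table (GRCm38.p6). Tubb6, whose first probe changed most, and Tubb2b had none, so their upstream sequences were not searched. Among the 250 bases before the start site, TGACGTCA was found in 1 of the 8, Tubb2a, and in 1.55% of all 32851 entries. TGANTCA was found in none of the 8 and in 6.75% of all entries. A match is a string of letters and not a measured binding site, and whether Jun acts on Tubb2a was not tested. The Tubb2a window is chr13:34078009-34078258 on the minus strand and the Tuba1c window chr15:99029641-99029890 on the plus strand. Both are written 5′ to 3′ with the matched letters in capitals, and the match in Tubb2a ends 51 bases before the start site.
Tubb2a: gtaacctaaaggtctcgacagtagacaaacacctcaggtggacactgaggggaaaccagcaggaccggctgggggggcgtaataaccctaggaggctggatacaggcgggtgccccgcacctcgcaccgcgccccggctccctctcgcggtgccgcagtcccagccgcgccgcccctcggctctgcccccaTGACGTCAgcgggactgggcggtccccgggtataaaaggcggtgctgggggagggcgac
Tuba1c: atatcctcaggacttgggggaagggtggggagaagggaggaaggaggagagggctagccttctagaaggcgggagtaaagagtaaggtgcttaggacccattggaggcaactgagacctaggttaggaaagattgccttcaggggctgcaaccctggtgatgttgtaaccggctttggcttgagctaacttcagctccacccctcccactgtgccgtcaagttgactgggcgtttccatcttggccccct
G and C made up 68.4% of the Tubb2a window and 55.6% of the Tuba1c window, against a median of 52.4% over all entries.

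Tubb5, the class I beta-tubulin of nearly all cells, had 2 probes on chromosome 17. The second, at chr17:33936683-33936742 (mm7), gave 1.31, 1.34, 1.21 and 1.36 in uninjured and 1.58, 1.46, 1.54, 1.53 and 1.60 in injured arrays. The groups were apart, and the probe was called at a log2 fold change of 0.24 ± 0.0572. The first, at chr17:33936592-33936651, gave 0.82, 0.80, 0.67 and 0.86 against 0.87, 0.87, 0.89, 0.94 and 0.89. These groups did not overlap either, but the margin was small, and the probe was not called at 0.11 ± 0.0574 (-0.063 with median centring in place of loess). In Cy5 alone the second probe changed by 0.12 and was not called. The change of the weakest Tubb2a probe exceeded that of this Tubb5 probe by 0.17 ± 0.105, and the Tubb5 change exceeded that of Tubb3 by 0.08 ± 0.111. These neighbours did not differ beyond 2 standard errors, so no order is given to them. All such differences between tubulin changes are description too, since the genes were chosen by these changes.

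Tubb3, the class III beta-tubulin by which neurons are stained, was measured by 10 spots of 1 probe at chr8:122062871-122062930 (mm7). The mean log2 ratios were 3.83, 3.74, 3.61 and 3.94 in uninjured and 3.69, 3.91, 3.84, 4.0 and 4.25 in injured arrays. The groups overlapped, with injured 5 highest and injured 1 below 3 of the 4 uninjured arrays. The log2 fold change of 0.16 ± 0.11 was not called. The 10 spots varied on a given array by an SD of 0.0254 to 0.0545, whereas arrays of 1 group varied by 0.144 (uninjured) and 0.208 (injured), so repeat spots agreed far better than arrays did.

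Tuba1a, the main alpha-tubulin of growing neurons, turned on 1 array. Its log2 ratios were 4.13, 3.96, 4.23 and 4.02 in uninjured and 4.29, 4.43, 4.37, 4.25 and 3.58 in injured arrays. Injured 1 to 4 lay above all uninjured arrays, and injured 5 below all of them. Over all arrays the log2 fold change was 0.10 ± 0.156 and was not called, and without injured 5 it was 0.25 and was called. Tuba1b, an alpha-tubulin of many cell types, gave 1.16, 1.22, 1.09 and 1.24 against 1.38, 1.43, 1.24, 1.41 and 1.07. Here too injured 5 was the lowest of all 9 arrays. The log2 fold change was 0.13 ± 0.0821 and was not called, and its probe is listed for Tuba1a, Tuba1b and Tuba1c together. With median centring in place of loess, Tuba1a changed by -0.056 and Tuba1b by -0.0061, and in Cy5 alone by -0.06 and 0.01. The Tuba1c probe did not share the low value of injured 5, which stood in the middle of its 5 injured arrays.

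Tuba4a, whose protein is made without the usual terminal tyrosine, had 3 probes that changed by 0.03 ± 0.237, -0.01 ± 0.185 and 0.09 ± 0.0588. None was called, and the sign of each turned under some other processing. Probes 1 and 2 varied between uninjured arrays more than probe 3 did, with SDs of 0.393 and 0.35 against 0.0657. Both had their highest values in uninjured 2 (1.83 and 1.94) and injured 5 (1.88 and 1.80) and their lowest in injured 3 (0.75 and 1.02), whereas probe 3 held between 1.5 and 1.71 on all arrays. Tuba8, a divergent alpha-tubulin of few tissues, gave -1.38 to -1.22 in uninjured and -1.64 to -1.08 in injured arrays. The groups overlapped, and its log2 fold change of -0.10 ± 0.109 was not called.

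**Figure D3:**
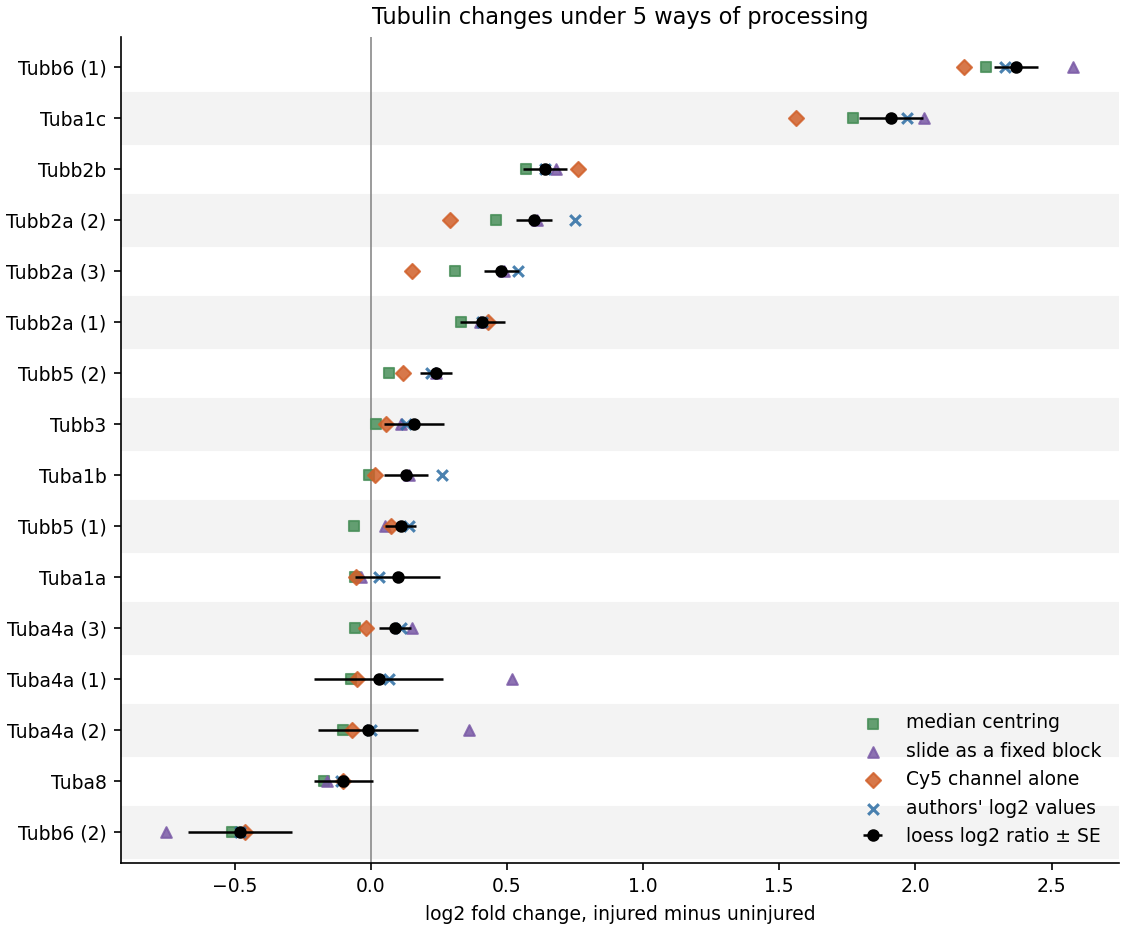
Log2 fold change of each tubulin probe, injured minus uninjured, under 5 ways of processing the same arrays. Black circles with bars are loess log2 ratios with their SE. Tubb6 probe 1 (2.18 to 2.58) and Tuba1c (1.56 to 2.03) were far from 0 in all 5, Tubb2a was lower with median centring and 2 of its 3 probes also in Cy5 alone, and Tuba1a and Tuba4a lay on both sides of 0.

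The scaling mattered most for the modest changes. With median centring in place of loess, 3 of the 16 tubulin probes were called: Tubb6 probe 1, Tuba1c and Tubb2b. The Tubb2a probes were then higher by 0.33, 0.46 and 0.31 and none was called. With the slide as a fixed block, which rests on the 3 injured arrays and 1 uninjured array of the shared slide, 4 probes were called: the same 3 and probe 2 of Tubb2a, at 0.61. Calls over all 31186 probes tested fell as well, from 7342 to 3519 with median centring and to 1505 with the slide block. Leaving out any 1 array left 7 or 8 tubulin probes called, and Tubb6 probe 1 then ranged from 2.32 to 2.42.

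Marker genes of the cell types in a ganglion were read beside these values, and their part in the tubulin changes was not tested. The mean log2 ratio of 8 sensory neuron markers was 5.64 to 5.86 in uninjured and 5.46 to 5.94 in injured arrays. Of these markers 1 was called, Isl1, a transcription factor of sensory neurons, which fell by 0.49 ± 0.0618 (limma adjusted p = 0.000262). The 4 satellite glia markers averaged 5.34 to 5.63 and 5.45 to 6.07, and Glul, glutamine synthetase, rose by 0.78 ± 0.0884 (limma adjusted p = 0.000136). The 8 macrophage markers measured averaged -0.39 to 0.39 and 0.09 to 1.00, and 2 were called higher, Aif1 by 0.90 and Itgam by 0.50. The 5 Schwann cell markers averaged 4.33 to 5.05 and 4.63 to 5.22, the 4 fibroblast markers -0.06 to 0.99 and 0.49 to 1.34, and none was called. Nor was any of the 5 markers of dividing cells, which averaged -4.74 to -4.62 in uninjured and -4.72 to -4.10 in injured arrays. Some injured arrays stood apart in markers of other tissues. Skeletal muscle markers reached 2.81 in injured 4 and at most -0.52 in uninjured arrays, red blood cell markers 4.65 in injured 5 and at most 3.71, and platelet markers 0.18 in injured 2 and at most -0.80. Endothelial markers averaged 1.35 to 1.95 in uninjured and 1.54 to 2.22 in injured arrays. No marker of these 4 lists was called. Without injured 2, 4 or 5, Tubb6 probe 1 changed by 2.35, 2.36 and 2.34, respectively.

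The genes whose log2 ratios ran most like those of Tubb6 probe 1 were sought among 16493 other genes with a symbol. Over the 9 arrays the 5 highest Pearson correlations were those of Rp9 (0.9983), Arhgap22 (0.9977), Mcoln2 (0.9976), Klf6 (0.9975) and Rab35 (0.9972). The gap between the 2 groups enters all of these values. For deviations from the group means the correlations were 0.923, 0.857, 0.676, 0.745 and 0.786 in the same order. Mcoln2, an ion channel of endosomes, and Klf6, a transcription factor, changed by 2.38 and 1.59 on the log2 scale, and Rp9, Arhgap22 and Rab35 by 0.42, 0.79 and 0.66.

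Other microtubule genes, which the choice of the 10 isotypes did not use, were read at the brightest probe of each gene. Their lists were drawn up with earlier results of these data known, so their calls and p-values are a description as well. Of 99 genes in 5 lists, 93 were tested, and 9 were called higher (9.68%) and 15 lower (16.1%). Over all genes with a symbol, 12.1% were called higher and 15.0% lower, so the shares were near the background. Nothing is read from the counts of single lists below. Of the 24 genes called, 17 were called without each array in turn and 6 with the slide as a fixed block. These 6 were Vash2, Stmn4, Map7d1, Tppp, Map7 and Tube1, and they were called under every alternative that kept the same probe and threshold. When a change above 1.5-fold was asked as well, Tube1 was no longer among them.

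**Figure D4:**
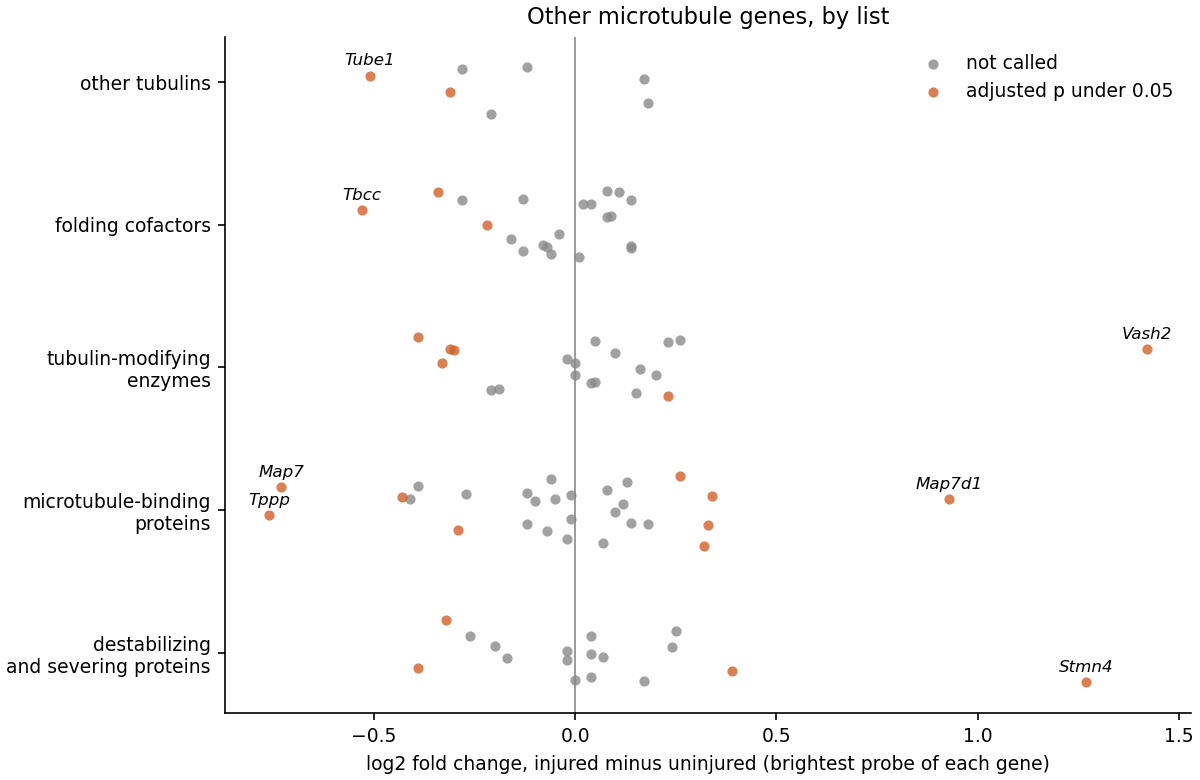
Log2 fold change, injured minus uninjured, of the other microtubule genes tested, at the brightest probe of each, by list. Each point is 1 gene, and the vertical spread within a list only separates the points. Orange genes had an adjusted p under 0.05, and those changed by more than 0.5 are named, with Vash2, Stmn4 and Map7d1 farthest on the higher side.

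Of 10 further tubulin genes, 7 were tested, and 2 were called, both lower, against 15.0% of all genes with a symbol called lower. Tube1, the epsilon-tubulin of centrioles and basal bodies, gave -1.49, -1.58, -1.49 and -1.51 in uninjured and -2.0, -2.04, -1.95, -1.95 and -2.16 in injured arrays. It was lower in every injured array and fell by 0.51 ± 0.0609 (limma adjusted p = 0.000207). Another Tube1 probe was not above background in Cy5 on any array and was not tested. Tubg2, a gamma-tubulin of the complex that nucleates microtubules, fell by 0.31 ± 0.0816 (limma adjusted p = 0.0188), and was no longer called without uninjured 1 or uninjured 2. The other gamma-tubulin, Tubg1, changed by -0.28 ± 0.102 (limma adjusted p = 0.0749). The delta-tubulin Tubd1 changed by -0.21, the beta-tubulins Tubb4a and Tubb4b by 0.17 and -0.12, and the alpha-tubulin Tuba3a by 0.18, and none of these 4 was called.

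The folding cofactors build the dimer from new alpha- and beta-chains. Of 21 tested, none was called higher and 3 were called lower, against 12.1% and 15.0% of all genes with a symbol. Their median log2 fold change was -0.04. Tbcc, which completes the release of the dimer, gave 1.25, 1.31, 1.2 and 1.43 in uninjured and 0.73, 0.63, 0.83, 0.79 and 0.85 in injured arrays. The groups did not overlap, and it fell by 0.53 ± 0.0696 (limma adjusted p = 0.000346, and 0.0617 with the slide as a fixed block). Tbcel, a relative that takes dimers apart, and Vbp1, a subunit of the chaperone prefoldin, fell by 0.34 and 0.22. The call of Vbp1 was lost without uninjured 1 or 3 or injured 4.

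Most of the tubulin-modifying enzymes listed act on the tails of tubulin. Of 20 tested, 2 were called higher and 4 lower, against 12.1% and 15.0% of all genes with a symbol. Vash2, a vasohibin that cleaves the terminal tyrosine of alpha-tubulin, gave -1.24, -1.25, -1.36 and -1.59 in uninjured and 0.37, 0.29, 0.04, 0.11 and -0.51 in injured arrays. All injured arrays were higher, with injured 5 lowest among them, and the log2 fold change was 1.42 ± 0.161 (limma adjusted p = 0.000142, and 0.0498 with the slide as a fixed block). In Agilent's own ratio it was 2.01. Ttll3, a glycylase, was higher by 0.23. Of the genes called lower, Ttll7 and Ttll6, which add glutamate, changed by -0.39 and -0.30, Agbl3, which removes it, by -0.33, and Ttll12 by -0.31. The call of Ttll3 was lost without any 1 of the uninjured arrays or injured 4 or 5, and that of Ttll6 without uninjured 1, 3 or 4 or injured 1, 2, 3 or 5.

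Of 28 microtubule-binding proteins tested, 5 were called higher and 4 lower, against 12.1% and 15.0% of all genes with a symbol. Map7d1, which binds along the lattice and recruits kinesin, gave 1.67, 1.75, 1.70 and 1.90 in uninjured and 2.68, 2.64, 2.52, 2.65 and 2.96 in injured arrays. It rose by 0.93 ± 0.0901 (limma adjusted p = 4.69e-05). Its paralog Map7 moved the other way, from 4.01, 3.67, 3.86 and 3.85 to 3.37, 3.20, 3.10, 2.86 and 3.08, and fell by 0.73 ± 0.103 (limma adjusted p = 0.000572). Tppp, a microtubule-bundling protein of myelinating cells, gave 2.76, 2.54, 2.72 and 2.47 in uninjured and 2.10, 1.74, 1.91, 1.80 and 1.76 in injured arrays. The groups did not overlap for any of these 3 genes, and Tppp fell by 0.76 ± 0.0909 (limma adjusted p = 0.000199). Camsap1, which caps minus ends, Dclk1, Map6, which makes microtubules resist cold, and Clip1, which tracks plus ends, were higher by 0.34, 0.33, 0.32 and 0.26. Mapre2, an end-binding protein, and Dclk2 were lower, with changes of -0.43 and -0.29. The call of Map6 was lost on leaving out any array but uninjured 2 or injured 3, and that of Dclk2 without uninjured 2 or 4 or injured 2, 3 or 4.

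Among 17 genes of the list named for destabilizing and severing proteins, 2 were called higher and 2 lower. Over all genes with a symbol the shares were 12.1% and 15.0%. The list also holds Crmp1, Dpysl2, Dpysl3, Dpysl4, Dpysl5 and Mcrs1, so its name does not describe every member. Stmn4, a stathmin that binds free dimers, gave 4.72, 5.13, 5.17 and 5.41 in uninjured and 6.09, 6.52, 6.26, 6.42 and 6.60 in injured arrays. The groups did not overlap, and it rose by 1.27 ± 0.14 (limma adjusted p = 0.000118) and by 1.68 with the slide as a fixed block. In Cy5 alone it rose by 2.34, more than in the ratio, so the Cy3 signal of its probe was also higher in injured arrays. Why the reference signal differed was not tested. Crmp1, a collapsin response mediator, was higher by 0.39. Fign and Katnal2, from families of severing enzymes, changed by -0.39 and -0.32, and the call of Fign was lost without any 1 of the uninjured arrays 1, 2 and 4 or the injured arrays 2, 3 and 5.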

How the data were processed

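L3/L4 DRG RNA of 5 injured and 4 uninjured samples was measured on 9 two-colour Agilent arrays. The deposited scanner intensities give, for each dye, the mean brightness of a spot and the median of its local background, not normalized per the file headers. The deposited log10 ratios carry, per the file headers, Agilent's background model and dye normalization. The values processed by the authors are log2 ratios of Cy5 over Cy3, and the submitters' processing notes name limma. The slope of the log2 ratios computed here against the authors' values was 1.00 to 1.01 on each array.

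Analysis used R 4.3.3 and limma 3.58.1 (normexp with offset 50, loess within arrays, mean of repeat spots, lmFit and eBayes without covariates, Benjamini-Hochberg adjustment). Spots with a non-uniformity flag were left out, because on injured 2 some lay as far as -9047 from their background and turned that slope to 0.813. Probes with Cy5 well above background on at least 4 arrays were tested. Slide 1 held uninjured 1 and injured 1, 2 and 5, slide 2 injured 3 and 4, and slide 3 uninjured 2, 3 and 4. Median Cy5 brightness was 156 to 238 and 71.0% to 78.9% of spots were above background, and the number of arrays limits the precision. Replicates were numbered in deposit order. The fit was tested on simulated data.

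Symbols came from the scanner files, updated through RefSeq. Probe coordinates are those of the files (mm7). Members and lists were chosen with earlier results of these data known. Named were all member probes, every other tubulin measured, called list genes with an absolute log2 fold change of at least 0.5, list members needed for counts of 5 or fewer, and the 5 genes most correlated with the most changed tubulin. Figures used matplotlib 3.10.9 under Python 3.11.15. The alternatives were other background corrections, scalings, filters, probe summaries, slide blocks, array weights, a fold threshold and leaving out each array.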

Additional observations from a re-analysis of the deposited data

Results flagged for a closer look

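Among the tubulin probes and the other microtubule genes tested, 218 groups of 4 or 5 arrays were examined for 1 array far from the rest, and 11 had one by Dixon's test, where chance gives about 1 in 20. In 3 cases it was a tubulin probe. Tuba1a was 3.58 in injured 5 against 4.25 in the nearest injured array. Probe 1 of Tuba4a was 1.83 in uninjured 2 against 1.1. Probe 1 of Tubb5 was 0.94 in injured 4 against 0.89, in a group of very narrow range. Injured 5 was also the outlying array for Tubg2 (2.76 against 2.47), Cct4 (-1.74 against -1.25), Agtpbp1 (3.59 against 3.81), Map9 (2.02 against 2.54) and Stmn1 (1.06 against 1.64). Sirt2 was 1.28 in injured 4 against 1.04, Ttl was 4.49 in uninjured 2 against 4.34, and Ttll6 was 1.29 in uninjured 2 against 1.51. All values are log2 ratios, each with that of the nearest array of its group.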

How the results depend on the processing

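No paired analysis was possible because no replicate numbers are given for the samples. Over all probes 7342 were called (tubulin probes 7, other microtubule genes 24), against 3519 (3 and 13) with median centring, 1505 (4 and 6) with the slide as a fixed block and 1626 (4 and 5) when a change above 1.5-fold was asked as well; the cause was not tested, beyond the stricter threshold itself and the few arrays of the shared slide. Under the other alternatives the counts stayed within 1.5 times, and without 1 array they ranged from 5377 to 7481 over all probes, 7 to 8 for tubulin probes and 18 to 26 for microtubule genes. In Cy3 the count of 29 ranged from 6 to 78. Of 346 values of tubulin probes under alternatives, 311 kept their direction and call, 11 lost the call, 3 gained one and 21 turned sign, all 21 at probes that were not called. With median centring these were Tuba1a (-0.056), Tuba1b (-0.0061), probes 1 and 3 of Tuba4a (-0.072 and -0.059) and probe 1 of Tubb5 (-0.063). In Cy5 alone they were Tuba1a (-0.055) and probes 1 and 3 of Tuba4a (-0.051 and -0.019). With the slide as a fixed block they were Tuba1a (-0.034) and probe 2 of Tuba4a (0.36). Probe 1 of Tuba4a was -0.01 with a random slide block, and probe 2 was 0.00051 with array weights. Without 1 array, Tuba4a probe 1 ranged from -0.12 to 0.23 and probe 2 from -0.10 to 0.16. The second Tubb5 probe was not called with all spots in the background fit (0.19) or with offset 0 (0.13). The second Tubb6 probe was called with array weights (-0.56). Of 528 values of the other called microtubule genes, 441 kept their call, 87 lost it and none turned sign. Dim probes limit little here, since all tubulin probes were above background.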
